A study of Mus musculus with 24 samples.

Results

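The 40 genes described here encode the regulators, receptors, enzymes and membrane proteins that build a red blood cell, and they were chosen by name as erythroid and heme synthesis genes. Of the 40, 36 had a probe on the array, among 17741 named genes in all, and each was read from its brightest probe (the highest mean over all 24 arrays). Erfe, Tfr2, Sptb and Epb4.2 were matched through a synonym or older name (the array calls them FAM132B, TRFR2, SPNB1 and EPB4.2). The globin genes Hba-a1, Hbb-b1 and Hbb-bh1 and the globin chaperone gene Ahsp had no named probe here and were dropped.

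RNA was measured in bone marrow cells sorted from C57BL/6 mice carrying or lacking the nuclear deubiquitinase BAP1. The 4 groups were myeloid progenitors (MP; lineage-negative, Sca1-negative, Kit-positive) labelled BAP1 KO, MP labelled WT, LSK cells (also Kit-positive and without lineage markers, but with Sca1 on the surface, a fraction rich in stem cells) labelled KO, and LSK cells labelled WT. Mice were given tamoxifen to delete Bap1 throughout the body, and the labels state this for WT and KO alike. Each group held 2 mice, told apart by the labels' mouse identifiers, with 3 arrays per mouse and no mouse in both populations. The sources used here do not state the age and sex of the mice, the Cre driver, the time after tamoxifen or which part of Bap1 was deleted. Values are log2 expression on a scale running from 5.66 to 15.93, with the 25th percentile of an array at 6.15 to 6.18.

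Red cell production starts from stem cells through myeloid progenitors that commit to the erythroid line under the transcription factors GATA1 and KLF1 and survive on erythropoietin. Maturing erythroblasts take up transferrin-bound iron, insert it into protoporphyrin in mitochondria to make heme, and assemble a spectrin and ankyrin skeleton anchored to band 3 under the membrane. They also release erythroferrone, a hormone that lowers hepcidin in the liver and so frees iron.

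The Bap1 probe did not read lower in KO mice, at 11.67 and 11.85 in KO MP against 11.54 and 11.59 in WT MP, and at 11.96 and 11.84 in KO LSK cells against 11.55 and 11.45 in WT LSK cells. It is not stated whether this probe lies in the deleted part, so it is no check of the genotypes, which are given below as labelled. Among 12 measured stem and multipotent cell markers, 8 were called lower in MP than in LSK cells in KO mice and 8 in WT mice, where 7.26% and 8.08% of all genes were. In KO mice 2 of these markers were called higher in MP, Cd48 (1.24 ± 0.30, limma adjusted p = 0.0234) and Slamf1 (0.34 ± 0.08, adjusted p = 0.0277), and in WT mice 0 were. Slamf1 lay near the low end in every mouse (5.78 to 6.29). Mouse 5 (WT MP) and mouse 1 (WT LSK) had a signal of the Y-linked gene Kdm5d, at 8.15 and 7.88, against 5.93 to 6.02 in the other 6 mice. No KO mouse had that signal, so values without mice 1 and 5 are given where they change a call. A fit without a mouse leaves its group with 1 mouse, which is assumed to vary as the mice of the other groups do. A difference is called here when its limma p, adjusted by Benjamini-Hochberg over all 22439 probes, is under 0.05. Sorted cells are mixtures, and fewer cells of a type cannot be told apart from less RNA per cell.

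In BAP1 KO cells most genes of red cell formation did not pass the test, while a few moved in opposite directions. In KO MP, Erfe and Rhag were higher and Epb4.2 was lower than in WT MP. In KO LSK cells, Erfe was higher and Epb4.2 and Car2 were lower. The mean of both differences added the cytoskeletal gene Sptb on the high side and the erythroid heme enzyme gene Alas2 on the low side. The median log2 difference of the 36 genes was -0.17 in MP, 0.11 in LSK cells and 0.02 for the mean, against 0.00, 0.02 and 0.01 over all 17741 genes.

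As counts, 2 of 36 were higher in KO MP, where 0.908% of all genes were called higher, and 1 of 36 was lower, where 1.74% of all genes were. In LSK cells 1 was higher and 2 were lower in KO, against 1.74% and 2.9% of all genes. For the mean of both populations 3 were higher and 3 lower, against 3.09% and 4.85%. Each of these counts lies within 2 genes of what those shares give for 36 genes, a coarse comparison at counts this small. In either direction 8.33% of the 36 genes were called in MP, 8.33% in LSK cells and 16.7% for the mean. Over all genes these shares were 2.64%, 4.64% and 7.95%. In the same order, 25%, 22.2% and 36.1% of the 36 genes had an unadjusted limma p under 0.05. Over all genes, which were not matched for level, 11.4%, 16.6% and 19.5% did. No listed gene passed the test of whether the genotype difference itself differed between MP and LSK cells, at limma adjusted p under 0.05, where 0.062% of all genes passed. In that test 3 of 36 genes (8.33%; Rhag, Cldn13 and Mgst3) had an unadjusted p under 0.05, against 6.35% of all genes.

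**Figure D1:**
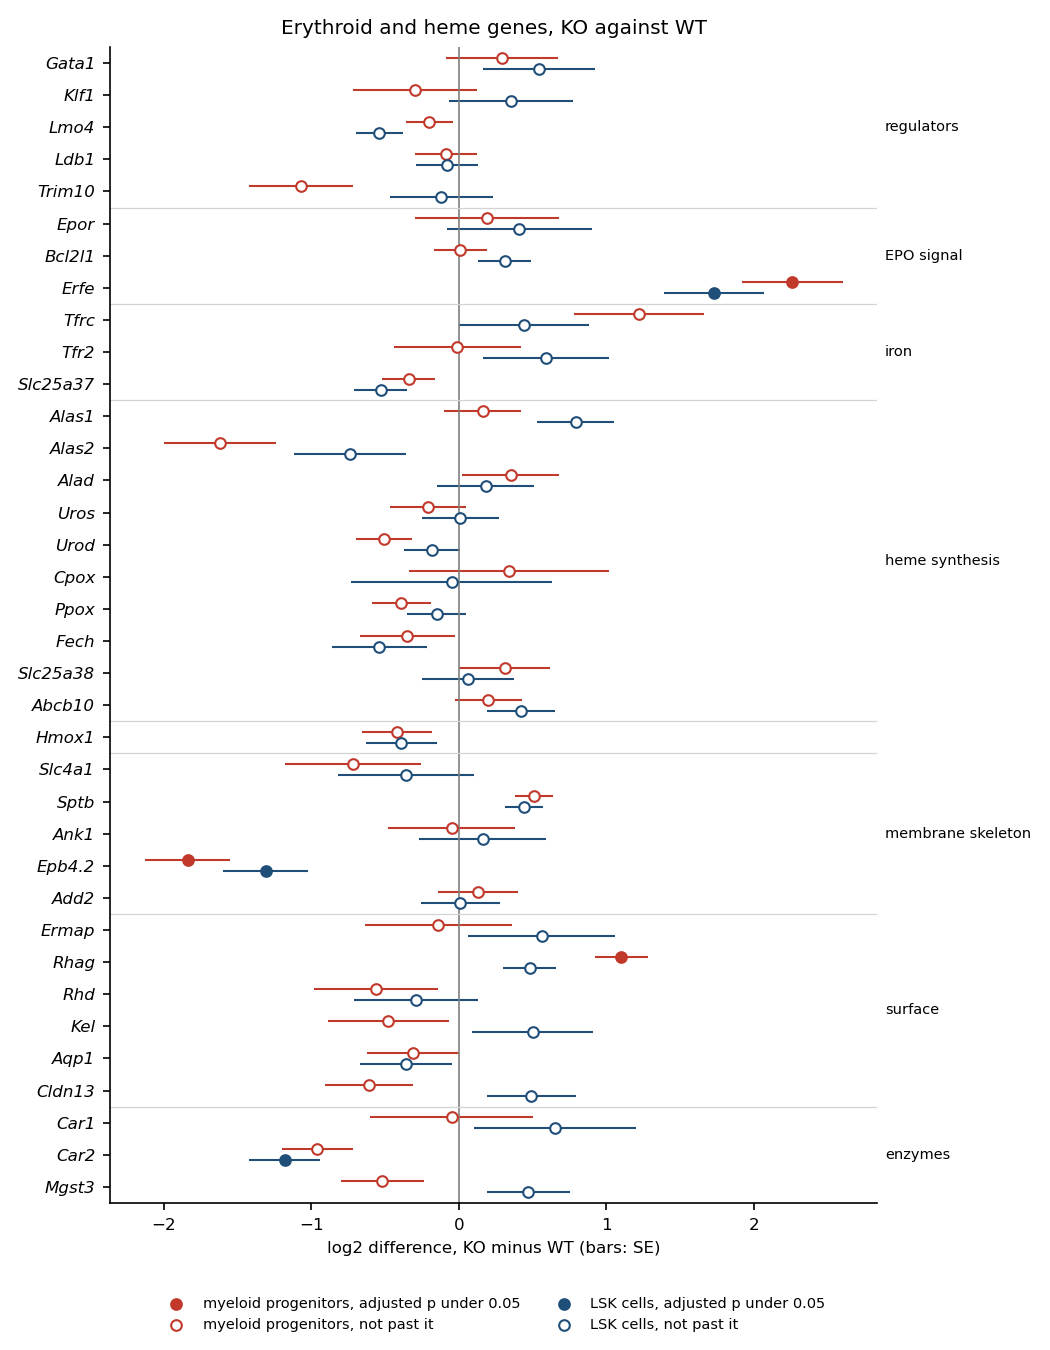
Log2 difference of each of the 36 measured genes, KO minus WT, with its standard error, in myeloid progenitors (red, drawn above) and LSK cells (blue, drawn below), grouped by role. Filled points passed the limma test. Erfe lies farthest to the right and Epb4.2 farthest to the left in both populations.

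Erfe, the gene for erythroferrone, showed the largest increase of the group. It read 8.18 and 8.76 in KO MP, against 6.07 and 6.35 in WT MP. In LSK cells it read 7.43 and 8.46 in KO, against 6.13 and 6.29 in WT. All 4 KO mice lay above all 4 WT mice, whose values sat close to the low end of the arrays. The difference was 2.26 ± 0.34 in MP (SE, limma adjusted p = 0.0154) and 1.73 ± 0.34 in LSK cells (adjusted p = 0.033), and 1.99 ± 0.24 for the mean of both (adjusted p = 0.00244). The mean kept its call in all 15 alternative fits (1.74 to 2.25). Over the 16 alternatives of each, the difference ranged from 1.96 to 2.55 in MP and from 1.22 to 2.25 in LSK cells. Both single calls were lost without limma's trend and robust options, and the LSK call also with the compared groups fitted alone. The MP call was lost without mouse 5 (2.11, adjusted p = 0.0891), mouse 6 (2.40, 0.0643), mouse 8 (1.96, 0.134) or mice 1 and 5 together (2.11, 0.166). The LSK call was lost without mouse 1 (1.65, 0.181), mouse 3 (1.82, 0.107), mouse 5 (1.73, 0.0531), mouse 6 (1.73, 0.0537) or mice 1 and 5 together (1.65, 0.245).

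Epb4.2, the gene for protein 4.2, which ties band 3 to the ankyrin and spectrin skeleton, went the other way. It read 7.49 and 8.02 in KO MP, against 9.86 and 9.33 in WT MP. In LSK cells it read 7.92 and 8.50 in KO, against 9.30 and 9.73 in WT. The highest KO value lay below the lowest WT value across both populations, and WT levels differed by 0.08 ± 0.29 between MP and LSK cells. Epb4.2 fell by 1.84 ± 0.29 in KO MP (3.57-fold, limma adjusted p = 0.00746), by 1.31 ± 0.29 in KO LSK cells (2.48-fold, adjusted p = 0.0311) and by 1.57 ± 0.21 for the mean (adjusted p = 0.00102). The mean kept its call in all 15 alternative fits (-1.72 to -1.43). The MP and LSK calls were both lost without limma's trend and robust options. The MP call was lost without mouse 5 (-1.57, adjusted p = 0.074), mouse 7 (-1.57, 0.0568) or mice 1 and 5 together (-1.57, 0.09). The LSK call was lost without mouse 1 (-1.52, 0.0569), mouse 2 (-1.02, 0.172), mouse 3 (-1.10, 0.153) or mice 1 and 5 together (-1.52, 0.0858).

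Rhag, which encodes the Rh-associated glycoprotein that carries the Rh antigens to the membrane, rose in KO MP. It read 8.10 and 8.43 in KO MP, against 7.03 and 7.30 in WT MP. In LSK cells it read 6.51 and 6.93 in KO, against 6.27 and 6.21 in WT. KO mice were above WT mice in both populations, with LSK values near the low end. The difference was 1.10 ± 0.18 in MP (2.15-fold, limma adjusted p = 0.00956) and 0.48 ± 0.18 in LSK cells (adjusted p = 0.208). For the mean it was 0.79 ± 0.13 (adjusted p = 0.00361). Without limma's trend and robust options the MP call was lost. The MP call was lost without mouse 5 (0.97, adjusted p = 0.0895), mouse 8 (0.93, 0.0772) or mice 1 and 5 together (0.97, 0.147), and so was the call of the mean without that pair (0.74, 0.0607).

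Car2, the gene for the red cell enzyme carbonic anhydrase 2, was one of the brighter genes of the group. It read 12.43 and 12.39 in KO MP, against 13.45 and 13.28 in WT MP. In LSK cells it read 11.07 and 11.86 in KO, against 12.75 and 12.53 in WT. Both KO mice lay below both WT mice in each population. It fell by 1.18 ± 0.24 in KO LSK cells (2.27-fold, limma adjusted p = 0.0221) and by 1.07 ± 0.17 for the mean (adjusted p = 0.00348). In MP the difference of -0.96 ± 0.24 did not pass (adjusted p = 0.0806). The LSK call was lost with the compared groups fitted alone and without limma's trend and robust options. The LSK call was lost without mouse 1 (-1.07, adjusted p = 0.143), mouse 2 (-0.78, 0.0876), mouse 3 (-1.29, 0.0512) or mice 1 and 5 together (-1.07, 0.219), and the call of the mean without mice 1 and 5 together (-0.97, 0.0688).

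Alas2 encodes the erythroid form of the enzyme that starts heme synthesis, and Sptb encodes beta-spectrin of the red cell skeleton. Both passed for the mean of the populations and in neither population alone. Alas2 read 10.53 and 11.81 in KO MP, against 12.85 and 12.72 in WT MP. In LSK cells it read 12.93 and 13.18 in KO, against 13.54 and 14.05 in WT. Both KO mice were below both WT mice in each population, and the KO MP mice lay 1.28 apart. Alas2 fell by 1.18 ± 0.27 for the mean (2.26-fold, limma adjusted p = 0.0373). The difference was -1.62 ± 0.38 in MP (adjusted p = 0.0863) and -0.74 ± 0.38 in LSK cells (adjusted p = 0.413). The call of the mean was lost without limma's trend and robust options. This call was lost without mouse 2 (-1.11, adjusted p = 0.142), mouse 3 (-1.05, 0.0956), mouse 4 (-1.24, 0.0947), mouse 5 (-1.15, 0.135), mouse 6 (-1.21, 0.114) or mice 1 and 5 together (-1.28, 0.177). Sptb read 6.77 and 6.97 in KO MP, against 6.36 and 6.37 in WT MP. In LSK cells Sptb read 6.54 and 6.86 in KO, against 6.20 and 6.33 in WT. KO mice lay above WT mice in each population, on a dim probe. Sptb rose by 0.47 ± 0.09 for the mean (adjusted p = 0.00916), and lost this call without mice 1 and 5 together (0.44, 0.113).

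**Figure D2:**
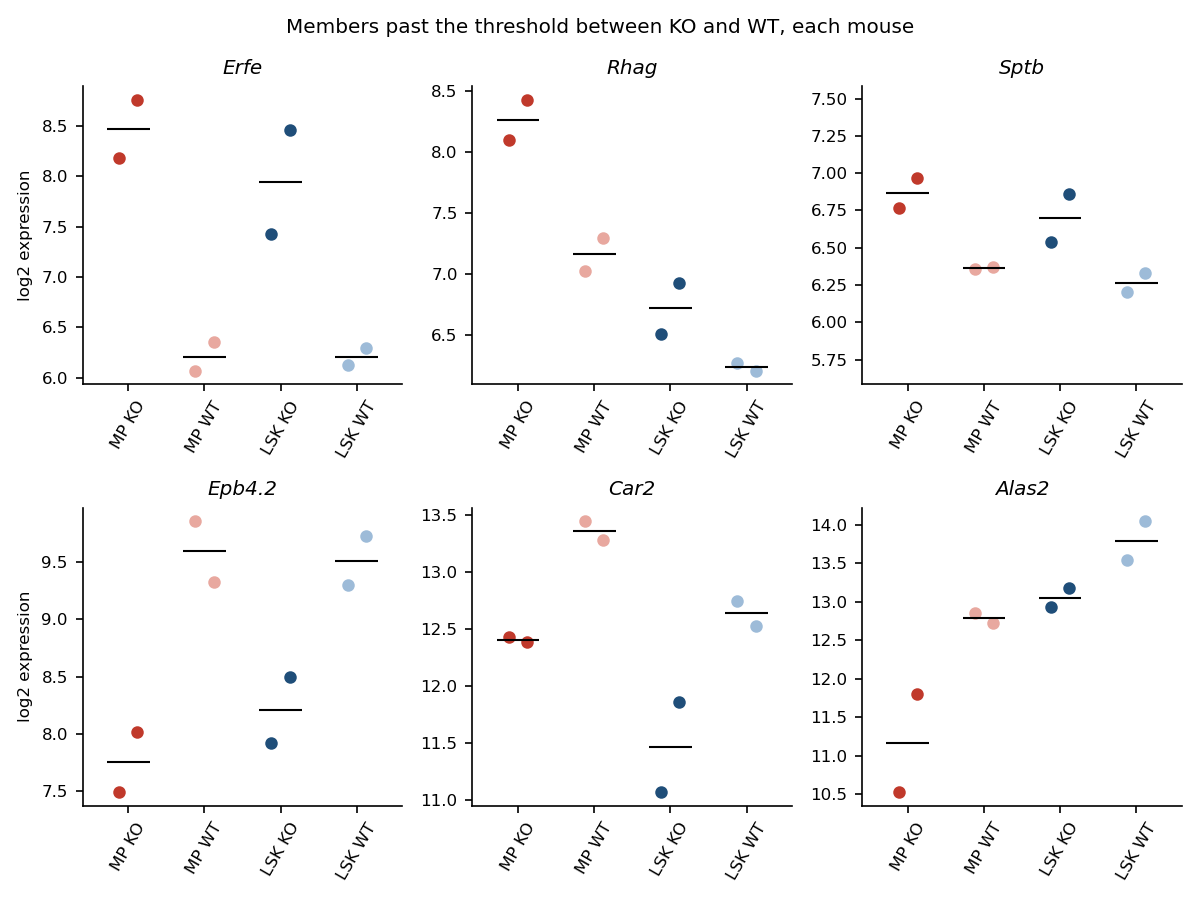
Log2 expression of the 6 genes called in a KO against WT comparison. Each point is a mouse (mean of 3 arrays), lines are group means, MP stands for myeloid progenitors, and each panel has its own vertical scale, which does not start at 0. KO mice lie above WT mice of their population for Erfe, Rhag and Sptb and below them for Epb4.2, Car2 and Alas2. Such separation, here and in the text on these genes, adds no support, since the test that picked them used the same mice.

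The sequences before the gene starts of the called genes are printed because these genes moved with the genotype in both directions. They come from RefSeq promoter windows (GRCm38.p6), whose table holds 40 windows of 28 of the listed genes and none of Car2. Capitals mark matches to GATAA, the core that GATA factors bind (TTATC where it lies on the other strand), and to CACCC, the core of KLF1 sites (GGGTG on the other strand). For Erfe and Rhag only the bases before the outermost annotated gene start are printed.
Erfe: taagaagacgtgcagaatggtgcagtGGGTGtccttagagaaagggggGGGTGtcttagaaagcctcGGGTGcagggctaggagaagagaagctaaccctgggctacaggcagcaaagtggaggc
Rhag: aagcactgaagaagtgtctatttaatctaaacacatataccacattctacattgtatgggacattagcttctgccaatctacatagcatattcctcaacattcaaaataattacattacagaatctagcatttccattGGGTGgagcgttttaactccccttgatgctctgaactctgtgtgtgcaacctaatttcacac
Sptb: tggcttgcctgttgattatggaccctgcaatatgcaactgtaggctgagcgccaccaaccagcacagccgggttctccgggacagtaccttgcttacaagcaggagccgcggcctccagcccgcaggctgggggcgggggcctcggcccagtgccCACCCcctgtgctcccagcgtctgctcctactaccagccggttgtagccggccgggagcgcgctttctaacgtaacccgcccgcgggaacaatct
Epb4.2: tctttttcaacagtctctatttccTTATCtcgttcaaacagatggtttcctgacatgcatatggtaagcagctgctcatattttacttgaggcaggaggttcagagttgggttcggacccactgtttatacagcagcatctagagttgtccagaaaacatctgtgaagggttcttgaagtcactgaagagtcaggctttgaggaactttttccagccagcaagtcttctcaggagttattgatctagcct
Alas2: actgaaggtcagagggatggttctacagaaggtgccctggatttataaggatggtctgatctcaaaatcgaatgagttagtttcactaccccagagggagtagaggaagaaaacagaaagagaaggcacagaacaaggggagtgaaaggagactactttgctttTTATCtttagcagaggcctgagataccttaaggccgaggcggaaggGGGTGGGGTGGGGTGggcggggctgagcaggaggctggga
These lie at chr1:91366180-91366304 (plus strand) for Erfe, chr17:40810899-40811098 (plus) for Rhag, chr12:76710548-76710797 (minus) for Sptb, chr2:121036878-121037127 (minus) for Epb4.2 and chrX:150547167-150547416 (plus) for Alas2. Over the 250 bases searched, Alas2 had a GATAA match at -86 to -82 and 3 CACCC matches between -40 and -26, counted from the transcript start. Epb4.2 had a GATAA match at -226 to -222, and Rhag had one at -31 to -27 in the unprinted stretch and a CACCC match at -112 to -108. Erfe had 3 CACCC matches and Sptb had 1. Among all 32851 promoter windows of the same length, 22.6% held GATAA and 52.0% held CACCC on either strand, while among the 40 windows of the listed genes 14 and 31 did. TTCNNNGAA, the pair of half-sites that STAT5 binds, was in 7.02% of all windows and in 1 of the 40.

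The transcription regulators of the group did not pass in any comparison of the genotypes. Gata1, the master regulator of the erythroid line, read 9.84 and 10.52 in KO MP against 9.32 and 10.46 in WT MP, and 8.09 and 8.42 in KO LSK cells against 7.52 and 7.90 in WT LSK cells. Klf1, which switches on globin and membrane genes, read 12.29 and 12.55 in KO MP against 12.46 and 12.97 in WT MP, and 9.93 and 10.52 in KO LSK cells against 9.21 and 10.53 in WT LSK cells. The genotypes overlapped for both genes in MP and for Klf1 in LSK cells. The differences were 0.29 ± 0.38 (Gata1) and -0.30 ± 0.42 (Klf1) in MP, and 0.54 ± 0.38 and 0.35 ± 0.42 in LSK cells. The LIM protein gene Lmo4 (-0.37 ± 0.12 for the mean, limma adjusted p = 0.0889), its partner Ldb1 (-0.08 ± 0.15) and the RING finger gene Trim10 (-0.59 ± 0.25, adjusted p = 0.232) also stayed under the threshold. Trim10 read 7.48 and 8.16 in KO MP against 9.30 and 8.48 in WT MP, which was its widest gap, -1.07 ± 0.35 (adjusted p = 0.22).

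Epor, the erythropoietin receptor gene, overlapped between the genotypes in both populations. It read 9.22 and 10.01 in KO MP against 8.93 and 9.91 in WT MP, and 7.64 and 8.58 in KO LSK cells against 7.29 and 8.11 in WT LSK cells. Its 95% interval for the mean difference ran from -0.52 to 1.11. The survival gene Bcl2l1, which encodes BCL-XL, differed by 0.16 ± 0.13 for the mean. Tfrc, the transferrin receptor gene, read 12.68 and 12.77 in KO MP against 11.34 and 11.67 in WT MP, and 10.21 and 11.65 in KO LSK cells against 10.19 and 10.80 in WT LSK cells. KO mice lay above WT mice in MP and overlapped them in LSK cells, and the MP difference of 1.22 ± 0.44 did not pass (limma adjusted p = 0.314). Tfr2, which senses transferrin, differed by 0.29 ± 0.31 for the mean. Slc25a37, the gene for mitoferrin 1, which brings iron into mitochondria, read 11.35 and 11.29 in KO MP against 11.60 and 11.72 in WT MP, and 11.53 and 11.50 in KO LSK cells against 12.02 and 12.07 in WT LSK cells. Its KO mice lay below the WT mice in both populations, and the mean difference of -0.44 ± 0.13 missed the threshold (adjusted p = 0.0662). How many of all genes separate in this way was not counted.

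Of the 10 heme synthesis genes, Alas2 alone was called in a comparison of the genotypes, and the median difference of the 10 was -0.02 in each population. Alas1, the form of the first enzyme used in all cells, read 14.38 and 14.07 in KO MP against 14.06 and 14.06 in WT MP, and 13.06 and 13.74 in KO LSK cells against 12.31 and 12.90 in WT LSK cells. In LSK cells the KO mice lay above the WT mice, opposite to Alas2, but the difference of 0.79 ± 0.26 did not pass (limma adjusted p = 0.133). In MP the lower KO mouse was about level with the WT mice, at 14.07 against 14.06. The later enzymes differed for the mean by 0.27 ± 0.24 (Alad), -0.10 ± 0.19 (Uros), -0.35 ± 0.13 (Urod, adjusted p = 0.179), 0.14 ± 0.48 (Cpox), -0.27 ± 0.14 (Ppox) and -0.44 ± 0.22 (Fech, which inserts the iron). The mitochondrial transporter genes Slc25a38, which brings in glycine, and Abcb10 differed by 0.19 ± 0.22 and 0.31 ± 0.16. Cpox had the widest 95% interval of these, from -1.06 to 1.35, since its KO LSK mice read 10.30 and 12.17. A dimmer second probe of Fech differed by 0.06 for the mean. Hmox1, the enzyme gene that breaks heme down, read 8.15 and 8.32 in KO MP against 8.55 and 8.76 in WT MP, and 8.91 and 8.84 in KO LSK cells against 8.94 and 9.59 in WT LSK cells. Its KO mice lay below the WT mice in both populations, with a mean difference of -0.41 ± 0.17 that did not pass (adjusted p = 0.223). The share of all genes separated like this was not counted.

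The other membrane genes did not pass. Slc4a1, the gene for the anion exchanger band 3, read 8.45 and 9.78 in KO MP against 10.17 and 9.51 in WT MP, and 10.89 and 11.46 in KO LSK cells against 11.25 and 11.82 in WT LSK cells. The genotypes overlapped in both populations, at -0.72 ± 0.46 in MP and -0.36 ± 0.46 in LSK cells. The skeleton genes Ank1 (ankyrin) and Add2 (beta-adducin) differed by 0.06 ± 0.31 and 0.07 ± 0.19 for the mean, with Add2 near the low end (5.88 to 6.84). The blood group and channel genes Ermap, Rhd, Kel and Aqp1 and the claudin gene Cldn13 ranged from -0.43 (Rhd) to 0.21 (Ermap) for the mean. Cldn13 was -0.61 ± 0.30 in MP and 0.49 ± 0.30 in LSK cells, a difference between populations of -1.10 ± 0.42 that did not pass (limma adjusted p = 0.705). Of the enzyme genes, Car1 (0.30 ± 0.39) and the glutathione transferase gene Mgst3 (-0.02 ± 0.20) also did not pass.

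The same genes differed more between the populations. In KO mice 9 of 36 were higher and 3 were lower in MP than in LSK cells, where 5.49% and 7.26% of all genes were called. In WT mice 11 were higher and 1 lower, where 5.46% and 8.08% were. The median difference, MP minus LSK, was 0.66 in KO and 0.68 in WT, against 0.01 and 0.03 over all genes. Of the 10 heme synthesis genes, Abcb10 was called higher in KO MP, and Alas1, Uros and Abcb10 in WT MP, while Alas2 was called lower in KO MP. Klf1 was higher in MP by 2.20 ± 0.42 in KO (4.58-fold, limma adjusted p = 0.0129) and by 2.84 ± 0.42 in WT (7.17-fold, 0.00394). Gata1 was higher by 1.93 ± 0.38 in KO (3.80-fold, 0.011) and by 2.18 ± 0.38 in WT (4.52-fold, 0.00581). Gata1 lost its KO call when mouse 2 or mouse 8 was left out, and Klf1 when mouse 2, 7 or 8 was, with a highest adjusted p of 0.109. The WT calls of both held in all alternative fits, with the WT difference of Klf1 at 2.18 without mouse 1 and 3.50 without mouse 3.

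**Figure D3:**
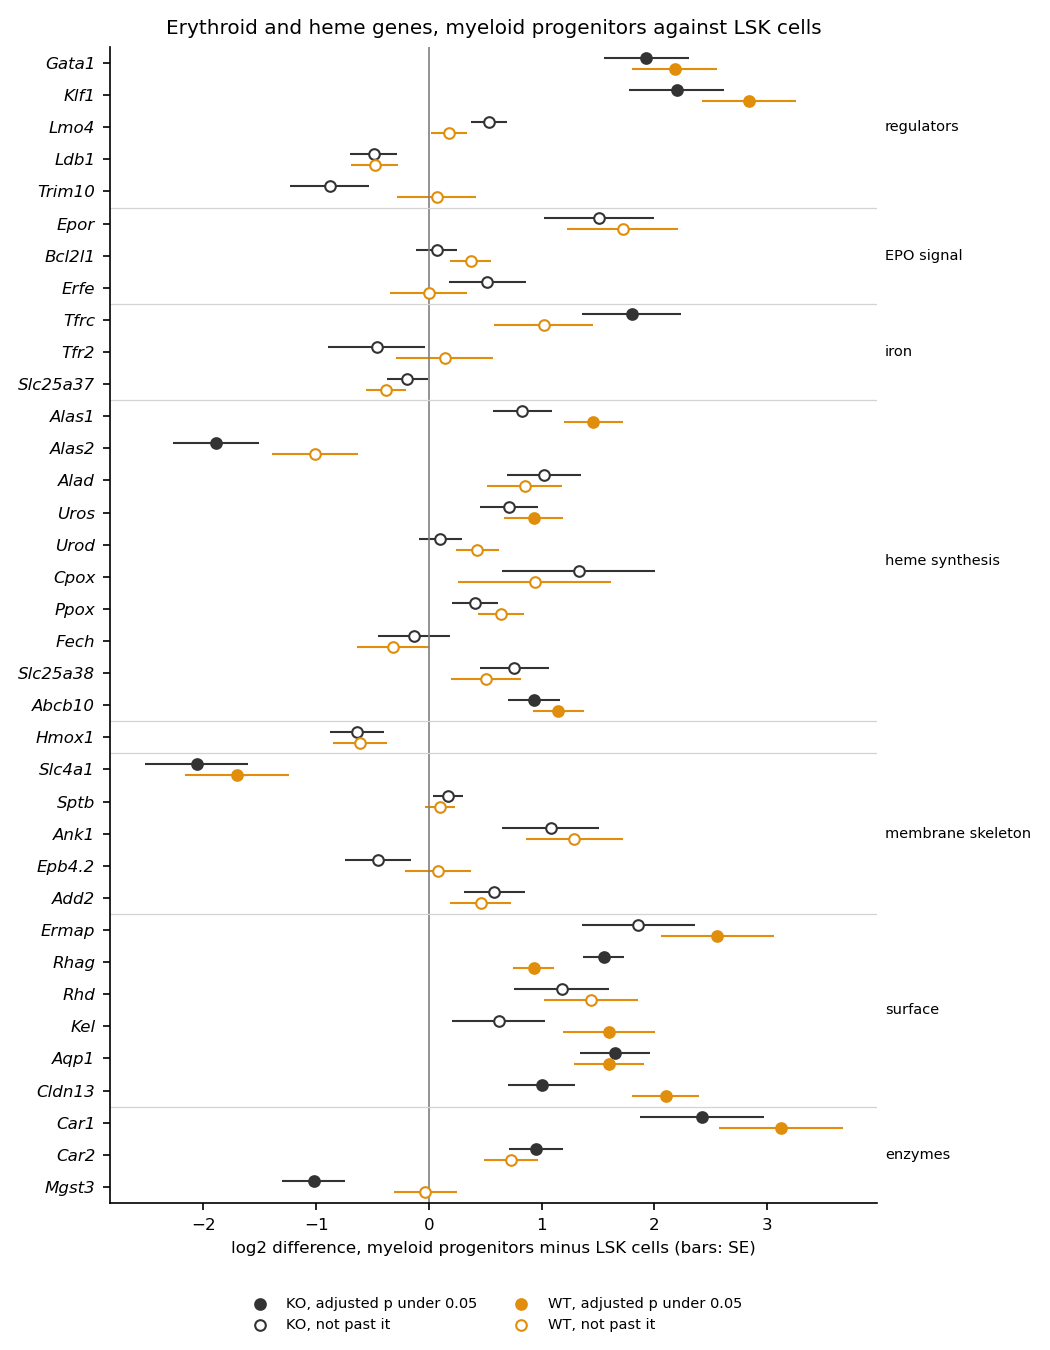
Log2 difference of each of the 36 measured genes, myeloid progenitors minus LSK cells, with its standard error, in KO mice (black, drawn above) and WT mice (orange, drawn below), grouped by role. Filled points passed the limma test. Most points lie to the right of 0, while 10 of 36 in KO and 7 in WT lie left of it, among them Slc4a1 in both genotypes.

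Surface genes made up 6 of the listed genes. Of these, 3 were called higher in KO MP and 5 in WT MP than in LSK cells, where 5.49% and 5.46% of all genes were. Ermap, an erythroid surface protein of the immunoglobulin family, read 9.71 and 11.06 in WT MP against 7.48 and 8.17 in WT LSK cells, a difference of 2.56 ± 0.50 (limma adjusted p = 0.017). In KO its difference of 1.86 ± 0.50 did not pass (adjusted p = 0.0556). Aqp1, the water channel gene, was 1.65 ± 0.31 higher in KO MP (adjusted p = 0.00743) and 1.60 ± 0.31 higher in WT MP (adjusted p = 0.0076). Cldn13 was higher by 1.00 ± 0.30 in KO (adjusted p = 0.0492) and by 2.10 ± 0.30 in WT (adjusted p = 0.00117). Rhag was higher by 1.55 ± 0.18 in KO (adjusted p = 0.000611) and by 0.93 ± 0.18 in WT (adjusted p = 0.00765). Its WT LSK values of 6.27 and 6.21 lay close to the 25th percentile of the arrays, and whether they stand above background is not known here. Kel, a metallopeptidase blood group antigen, was higher by 1.60 ± 0.41 in WT (adjusted p = 0.0379), with 0.62 ± 0.41 in KO, and Rhd did not pass in KO (1.18 ± 0.42) or WT (1.44 ± 0.42). MP and LSK mice did not overlap within WT for the 5 genes called there, which adds no support, since the test that picked them used the same mice. The WT call of Cldn13 and the KO calls of Rhag and Aqp1 held in all alternative fits. Single mice ended the others: Ermap without mouse 1 (its difference was 3.24 without mouse 5 and 1.89 without mouse 6), Aqp1 in WT without mouse 1 or 6, Rhag in WT without mouse 6, Kel without mouse 1, 6, 7 or 8, and Cldn13 in KO without mouse 2, 4, 5, 6 or 8 (adjusted p up to 0.348 over these and the other alternatives).

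Car1, carbonic anhydrase 1 and an early gene of the erythroid line, had the largest difference between the populations. It read 11.52 and 12.03 in KO MP against 8.91 and 9.81 in KO LSK cells, and 11.51 and 12.14 in WT MP against 7.95 and 9.46 in WT LSK cells. MP mice lay above LSK mice in both genotypes. The difference was 2.42 ± 0.55 in KO (5.34-fold, limma adjusted p = 0.0338) and 3.12 ± 0.55 in WT (8.68-fold, 0.0126). Another Car1 probe gave 2.45 in KO and 3.15 in WT, while a further one sat at a mean of 5.89, near the low end, with differences of -0.01 and 0.00. The KO call was lost without mouse 2, 7 or 8 and the WT call without mouse 6 (adjusted p up to 0.186). The WT difference was 2.37 without mouse 1 and 3.87 without mouse 3, and averaging the probes gave 1.62 in KO and 2.09 in WT. Car2 was 0.95 ± 0.24 higher in KO MP (adjusted p = 0.0292) and 0.73 ± 0.24 in WT MP (adjusted p = 0.081). Tfrc was called in KO (1.80 ± 0.44, adjusted p = 0.0345), with 1.02 ± 0.44 in WT (adjusted p = 0.188). The KO difference of Tfrc was 1.08 without mouse 2 and 2.52 without mouse 4. Car2 lost this call without mouse 2, 7 or 8, and Tfrc without mouse 2, 5, 6, 7 or 8 (adjusted p up to 0.169). Abcb10 was called in KO (0.93 ± 0.23) and WT (1.15 ± 0.23), and Alas1 (1.46 ± 0.26) and Uros (0.93 ± 0.26) in WT. Alas1 lost its call without mice 1 and 5 together (1.16, adjusted p = 0.144), Abcb10 without mouse 2, 7 or 8 in KO and without mouse 3 or 5 in WT, and Uros without mouse 1, 5, 6, 7 or 8.

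Slc4a1 and Alas2, which maturing red cells use strongly, ran against most of the group and were brighter in LSK cells. Slc4a1 was lower in MP, at -2.06 ± 0.46 in KO (4.17-fold, limma adjusted p = 0.0248) and -1.70 ± 0.46 in WT (3.25-fold, 0.0484), and its MP and LSK mice did not overlap in either genotype. Alas2 differed by -1.89 ± 0.38 in KO (3.70-fold, adjusted p = 0.0165) and by -1.01 ± 0.38 in WT (adjusted p = 0.137). Mgst3 differed by -1.02 ± 0.28 in KO (adjusted p = 0.0392) and by -0.03 ± 0.28 in WT. Slc4a1 lost its KO call when mouse 2, 4 or 7 was left out, with a highest adjusted p of 0.113, and this difference was -1.39 without mouse 7 and -2.73 without mouse 8. Its WT call ended without any 1 of mice 1 to 6 (-2.31 to -1.37 over all alternatives, highest adjusted p 0.207). Alas2 lost its KO call without mouse 2 or 4 (highest adjusted p 0.0969; -1.24 without mouse 7 and -2.53 without mouse 8) and Mgst3 without mouse 2, 4, 7 or 8 (highest 0.243). Without mice 1 and 5 together, the KO calls of Tfrc, Alas2, Cldn13 and Car2 between the populations were also lost, as were the WT calls of Alas1, Uros, Abcb10, Slc4a1, Rhag, Kel and Aqp1, at limma adjusted p of 0.0544 (Alas2) to 0.273 (Uros).

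Within each group, most of these genes read higher in the same 1 of its 2 mice. In KO MP, 30 of 36 genes were higher in mouse 8 than in mouse 7 (49.1% of all genes), with a median difference of 0.37. In WT MP, 24 of 36 were higher in mouse 6 than in mouse 5 (51.7% of all genes; median 0.30). In KO LSK cells, 29 were higher in mouse 4 than in mouse 2 (48.8%; median 0.56), and in WT LSK cells 31 were higher in mouse 3 than in mouse 1 (51.8%; median 0.49). Over all genes the median difference of each pair lay between -0.01 and 0.01, which the normalization between arrays holds near 0. The median size of the difference, whatever its sign, was 0.37 in KO MP, 0.37 in WT MP, 0.56 in KO LSK cells and 0.49 in WT LSK cells, against 0.11 to 0.15 over all genes, which were not matched for level. In all, 19 of 36 genes (52.8%) were higher in mice 8, 6, 4 and 3 than in their group partners, against 7.34% of all genes. They include Gata1, Klf1 and Epor, for which the WT MP mice lay 1.14, 0.52 and 0.98 apart. Mice 1 and 5, the lower ones of the WT pairs, were those with a Kdm5d signal, while mice 2 and 7, the lower ones of the KO pairs, had none. Whether these spreads share a source was not tested.

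**Figure D4:**
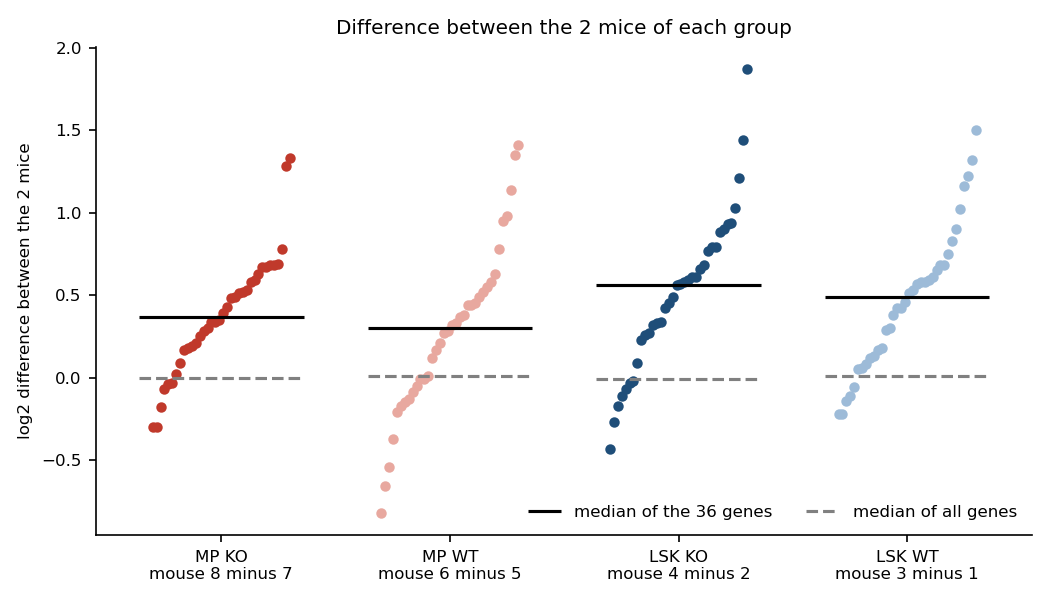
Log2 difference between the 2 mice of each group for the 36 measured genes (points, sorted), the higher-numbered mouse minus the lower-numbered mouse, in myeloid progenitors (MP) and LSK cells. The solid lines are the medians of the 36 genes, at 0.30 to 0.56, and the dashed lines are the medians of all genes, near 0.

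Other genes of the same pathways were read from lists of related genes. Among 38 measured further erythroid genes (of 50 listed), 2 were higher and 1 lower in KO MP, where 0.908% and 1.74% of all genes were. In KO LSK cells 1 was higher and 1 lower, where 1.74% and 2.9% of all genes were. The medians were 0.01 in MP and -0.05 in LSK cells. Hemgn, which encodes the nuclear protein hemogen of blood progenitors, read 10.68 and 10.58 in KO MP against 11.66 and 11.70 in WT MP, and 10.16 and 10.54 in KO LSK cells against 11.05 and 11.40 in WT LSK cells. Its KO mice lay below the WT mice in both populations, at -0.96 ± 0.15 for the mean (limma adjusted p = 0.00315), a call that held in all alternative fits. Tmod1, whose product tropomodulin caps actin in the membrane skeleton, rose by 0.95 ± 0.17 for the mean (adjusted p = 0.00565), and lost this call without mice 1 and 5 together (highest adjusted p = 0.0705). In KO MP the genes called higher were Tmod1 and Aqp9, and Aqp9 rose there by 1.06 ± 0.23 (limma adjusted p = 0.0407). In LSK cells Aqp9 differed by -0.05 ± 0.23. Isg20 fell by 0.99 ± 0.19 for the mean on its brightest of 3 probes, and by 0.33 with adjusted p = 0.214 averaged over them. In KO LSK cells the organic cation transporter gene Slc22a4 rose by 1.13 ± 0.28 (adjusted p = 0.0459), lost in 10 of 16 alternatives, among them without mouse 1, 4, 5, 6, 7 or 8.

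Of 32 measured further heme and iron genes (of 38 listed), 0 were called in either population or for the mean by limma at adjusted p under 0.05, with 2, 0 and 1 (6.25%, 0% and 3.12%) at an unadjusted p under 0.05 in MP, LSK cells and the mean, where 11.4%, 16.6% and 19.5% of all genes were. Between the populations, 8 of these 32 were higher and 1 lower in KO MP than in KO LSK cells, where 5.49% and 7.26% of all genes were. In WT 7 were higher and 0 lower in MP, where 5.46% and 8.08% of all genes were. Of 19 measured genes of erythropoietin receptor signalling (of 21 listed), which other cytokine receptors share, 5 were higher and 0 lower in KO MP (0.908% and 1.74% of all genes), 2 higher and 0 lower in KO LSK cells (1.74% and 2.9%), and 5 higher and 1 lower for the mean (3.09% and 4.85%). Those called for the mean with the largest changes were the feedback inhibitors Socs2 (1.83 ± 0.21), Cish (1.64 ± 0.22) and Socs3 (1.45 ± 0.22) and the adaptor Gab2 (1.19 ± 0.16), and each of these 4 calls of the mean held in all alternative fits. The gene called lower was the adaptor Gab1 (-0.65 ± 0.15, limma adjusted p = 0.0227), which lost this call in 7 of 15 alternatives, among them without mouse 1, 2, 5, 6 or 7 (highest adjusted p 0.136). Cish read 11.04 and 11.94 in KO MP against 9.38 and 9.63 in WT MP, and 13.42 and 13.29 in KO LSK cells against 12.42 and 11.69 in WT LSK cells. The receptor's kinase gene Jak2 spanned 9.71 to 10.15 over all 8 mice and the transcription factor gene Stat5b 10.50 to 11.21.

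Some markers of other cells that such sorts can hold also passed the limma test between the genotypes, though not all lists shifted in their summed level. Over all genes, 0.908% were called higher and 1.74% lower in KO MP, and 1.74% and 2.9% in KO LSK cells. The megakaryocyte list, a lineage that shares a progenitor with red cells, had 4 of 22 higher and 1 lower in KO MP and 1 higher and 3 lower in KO LSK cells. Its summed level, on the linear scale divided by 1000, ran from 28.5 to 30.7 in KO MP against 22.4 to 25 in WT MP, and from 19.1 to 20.1 in KO LSK cells against 18.4 to 20 in WT LSK cells. Of its defining markers Itga2b lay near the low end (5.91 to 6.29), while Pf4, Gp1bb, Gp5, Gp9 and Vwf did not. The macrophage list had 0 of 15 higher and 2 lower in KO MP and 2 higher and 1 lower in KO LSK cells, and its sum ran from 21.6 to 25.8 in KO MP against 21.1 to 21.4 in WT MP, and from 12.7 to 17.3 in KO LSK cells against 8.47 to 11.5 in WT LSK cells. The granulocyte and monocyte list had 1 of 19 higher in KO MP and 3 in KO LSK cells, with sums of 172 to 182 in KO MP against 161 to 174 in WT MP, and 141 to 182 in KO LSK cells against 128 to 142 in WT LSK cells. The B cell list had 6 of 11 lower in KO MP and 8 in KO LSK cells, with sums of 2.77 to 2.94 in KO MP against 11.8 to 18.9 in WT MP, and 2.58 to 3.97 in KO LSK cells against 21.6 to 24.1 in WT LSK cells. The stem and multipotent list had 1 of 12 lower in KO MP and 0 in KO LSK cells. Its sums ran from 21.9 to 23.2 in KO MP against 23.5 to 24.3 in WT MP. In LSK cells they ran from 63.9 to 68.1 in KO against 78 to 94.6 in WT. The endothelial list had 1 of 10 lower in KO MP, and 1 higher and 2 lower in KO LSK cells. Its sums ran from 24.2 to 29.8 in KO MP against 20.3 to 21.5 in WT MP. In LSK cells they ran from 38 to 49.6 in KO against 37.5 to 43.5 in WT. The summed level of the 36 erythroid and heme genes was 108 to 119 in KO MP against 123 to 138 in WT MP. In LSK cells it was 72.2 to 95.8 in KO against 86.5 to 107 in WT. Sums on the linear scale weigh the brightest genes most, so they do not show a shift of a whole list. The median log2 difference of the 36 genes was -0.17 in MP and 0.11 in LSK cells. The part of cell composition in the genotype differences above was not tested.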

How the data were processed

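Total RNA of sorted cells was amplified with amino-allyl UTP, coupled to Cy5 and, per the labels' protocols, hybridised as a single colour. The authors deposited log2 expression values. Among tools, limma is named in the submitters' processing notes, with no step given. That they are log2 and normalized between arrays was read from the values, since values of equal rank differ by no more than 0.0451 across the 24 arrays. For the scanner, background correction and spot filters, nothing is stated in the sources used here. No column of the table was left unused.

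Gene names of 22439 probes came from the platform annotation, updated through RefSeq (GRCm38.p6): 18213 probes matched by symbol, 2126 by synonym, 36 kept the array's name and 2064 had none. The 40 genes, the further gene lists and the tests were chosen with earlier results of these data known. The 3 arrays of a mouse were averaged, and 8 mouse means in 4 groups were fitted with limma 3.58.1 (R 4.3.3; lmFit, eBayes with trend and robust, 4 residual degrees of freedom, median prior 6.91). Two-sided p-values were adjusted over all probes (Benjamini-Hochberg), and the threshold was 0.05. Intervals are at 95%. The fit was tested on simulated data. Every mouse's values are given for genes called between the genotypes and for examples of each role. As alternatives, every array was used with a random mouse block, alone or joined by a replicate block of the array number, and other fits took the compared groups alone, no trend and robust options, probes above the 25th percentile, median-centred arrays, the mean over a gene's probes, each mouse left out, and no mice with a Kdm5d signal. Arrays carry no count depth, and the 2 mice per group limit the precision.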

Additional observations from a re-analysis of the deposited data

Results flagged for a closer look

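Among the genes of the lists used here, 2 differed in their KO minus WT change between the populations by the limma test of the difference itself, and neither is one of the 36 erythroid and heme genes. The kinase gene Pim1, of the erythropoietin signalling list, read 13.50 and 13.41 in KO MP against 12.19 and 12.01 in WT MP, and 13.86 and 13.78 in KO LSK cells against 14.03 and 13.99 in WT LSK cells, so that its change was 1.55 higher in MP than in LSK cells on the log2 scale. The tight junction gene Cldn5, of the endothelial list, read 7.41 and 7.76 in KO MP against 6.87 and 7.33 in WT MP, and 11.40 and 11.17 in KO LSK cells against 7.90 and 7.47 in WT LSK cells, a difference between the changes of -3.12. The Pim1 call was lost without mouse 1, 6, 7 or 8 or mice 1 and 5 (those with a Kdm5d signal), at 1.46 to 1.64 over the alternatives (adjusted p up to 0.142). The Cldn5 call was lost in the fit without trend and robust options (adjusted p = 0.142) and held in the other 14 alternatives.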

How the results depend on the processing

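Over the alternatives, no difference of the 36 genes turned round past the threshold (0 of 570 values of differences called at first and 0 of 2808 of the others), while 121 of the 570 lost their call and 147 of the 2808 gained one. At first 533 probes were called in MP, 947 in LSK cells, 1651 for the mean, 17 for the difference between populations, 2764 for MP against LSK in KO and 2857 in WT, and of the 36 genes 3, 3, 6, 0, 12 and 12 in that order. With all arrays and the mouse as a random block these were 1927, 3176, 3786, 528, 5580 and 5586 probes and 8, 9, 13, 1, 27 and 24 genes. With the array number as a replicate block as well they were 1828, 3054, 3684, 459, 5433 and 5423 probes and 8, 9, 12, 0, 27 and 24 genes; the numbers do not pair arrays across groups (median r of deviations 0.01 over 84 same-numbered pairs, 0.00 over 168 others). The compared groups alone gave 5 genes in MP, 1 gene and 546 probes in LSK cells. Between populations that fit ended the calls of Tfrc, Cldn13 and Car2 in KO and Kel in WT. Without trend and robust options there were 327 probes and 0 genes in MP and 1 gene in LSK cells, which was none of Erfe, Epb4.2 and Car2. That fit also gave 0 probes for the difference and 7 genes between populations in KO. Between populations it ended the calls of Tfrc, Slc4a1, Cldn13, Car1, Car2 and Mgst3 in KO and of Uros, Slc4a1 and Kel in WT. At first 9 of 36 genes (25%) had an unadjusted limma p under 0.05 in MP, against 11.4% of all genes. Without both mice with a Kdm5d signal there were 285, 386, 863 and 64 probes in the first 4 comparisons, 745 between populations in WT, 0 genes in MP and in LSK cells, 2 for the mean and 5 between populations in WT. Leaving out each mouse in turn gave 221 to 623 probes and 0 to 6 genes in MP, 498 to 1160 and 0 to 3 in LSK cells, 931 to 1751 and 5 to 7 for the mean, 14 to 148 and 0 to 0 for the difference, 1156 to 3252 and 2 to 13 between populations in KO, and 1297 to 3270 and 7 to 14 in WT. The cause of these shifts was not tested. With 2 mice a group, the signal over background of dim probes (Erfe, Sptb and Add2 in WT, Rhag in WT LSK cells) limits what can be read.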

Other observations

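The theta globin genes, chosen after their values were seen, were the globin genes with a named probe among those searched. Hbq1b read 6.46 and 7.16 in KO MP against 7.92 and 8.32 in KO LSK cells, and 6.84 and 6.72 in WT MP against 7.43 and 7.80 in WT LSK cells. Like Slc4a1 and Alas2, it was lower in MP than in LSK cells, at -1.31 ± 0.24 in KO (limma adjusted p = 0.00661) and -0.84 ± 0.24 in WT (adjusted p = 0.0459). The KO call was lost without mouse 7 (adjusted p = 0.0518) and the WT call without mouse 1, 3, 5 or 6 and with the mean of its 2 probes (up to 0.213). Hbq1a, its paralog, stayed between 5.94 and 6.32 in all mice, near the low end of the arrays, and cross-hybridization between the pair was not tested.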
